A study of Homo sapiens with 12 samples.

Results

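The Hippo pathway genes described here are 38 in number, of 37247 genes in each expression table. They comprise 21 core components (the coactivators YAP1 and WWTR1, the TEAD factors, the VGLL cofactors, the kinases with their adaptors, and the upstream scaffolds) and 17 genes that YAP and TAZ are known to switch on. Members were chosen by name, from gene symbols matched to the Ensembl identifiers in the tables, and all 38 symbols matched. The choosing rule uses no measured value, although earlier results of these data were known when the genes were listed.

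The Hippo pathway restrains growth through a chain of kinases. STK3 and STK4, known as MST kinases, act with the adaptor SAV1 on the kinases LATS1 and LATS2, which act with MOB1 proteins to phosphorylate YAP and TAZ, the products of YAP1 and WWTR1. Phosphorylated YAP and TAZ are held in the cytoplasm or degraded, while unphosphorylated YAP and TAZ enter the nucleus, bind TEAD proteins and switch on genes such as CCN1, CCN2 and ANKRD1. Most of this control acts on proteins, so transcript levels describe the supply of the components and the output of the targets, and not the phosphorylation itself. In lung and thyroid epithelial cancers YAP and TAZ are known for their part in survival and in tolerance to kinase inhibitors.

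RNA was sequenced from 4 groups of 3 libraries each, 12 in all. LC-2/ad is a human lung adenocarcinoma line and TPC-1 a human papillary thyroid carcinoma line, and both carry a rearranged RET kinase gene. In each line, cells given 100 nM selpercatinib, an inhibitor of RET, for 48 h were set against parent cells of the same line, whose treatment label is "none". The labels do not say whether parent cells received the solvent or whether each library is a culture of its own, so p-values measure the spread between these libraries, which may be technical. Each group is 1 line, so nothing here speaks to other lung or thyroid cancers.

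Values are transcripts per 1000000 (TPM), which are corrected for transcript length and sum to the same total in each library. The number of reads behind them is unknown. Mitochondrial genes took 14 to 15% of TPM in selpercatinib LC-2/ad libraries, against 9.72 to 9.82% in parent LC-2/ad libraries, and 5.83 to 6.82% in selpercatinib TPC-1 libraries, against 6.41 to 7.56% in parent TPC-1 libraries. One parent library of TPC-1 stood apart on the first principal component, at -4.9, against -23.3 and -17.7 for the other parent libraries and 8.4 to 19.5 for selpercatinib libraries. The lung factor NKX2-1 was at 140.1 to 140.6 TPM in selpercatinib and 105.4 to 114 TPM in parent LC-2/ad libraries, and was listed at 0 in all TPC-1 libraries. The thyroid factor PAX8 was at 256 to 285 TPM in selpercatinib and 153.8 to 230 TPM in parent TPC-1 libraries. PAX8 was also present in LC-2/ad, at 19.52 to 24.59 TPM with selpercatinib and 14.04 to 16.18 TPM in parent libraries. FOXE1, another thyroid factor, was at 34.52 to 38.42 TPM in selpercatinib and 11.3 to 12.14 TPM in parent LC-2/ad libraries. In TPC-1 FOXE1 was at 8.891 to 9.829 TPM with selpercatinib and 8.286 to 9.832 TPM in parent libraries. The mature thyroid genes TG and TSHR stayed under 2 TPM everywhere, the surfactant gene SFTPC was listed at 0 everywhere, and the epithelial genes EPCAM (3.306 to 5 TPM) and CDH1 (0.1494 to 1.818 TPM) were low in TPC-1. The epithelial keratin KRT8 was abundant there, at 1512 to 1528 TPM in selpercatinib and 1656 to 1773 TPM in parent libraries, as was KRT18. In both lines the summed level of the 4 epithelial markers, most of it KRT8 and KRT18, was lower with selpercatinib. The sum was 2490 to 2560 TPM in selpercatinib and 3690 to 3830 TPM in parent LC-2/ad libraries. In TPC-1 it was 2440 to 2470 TPM in selpercatinib and 2830 to 3150 TPM in parent libraries. KRT8 and KRT18 were each lower in both lines. In LC-2/ad EPCAM averaged 328.7 TPM with selpercatinib and 379 TPM in parent cells. CDH1 there went the other way, at 189.8 TPM with selpercatinib and 168.5 TPM in parent cells, with overlapping groups. In TPC-1 the groups of EPCAM and of CDH1 overlapped. The part of these markers in the results was not tested. Of 10 markers of immune, endothelial, stromal and red blood cells, 4 in selpercatinib and 3 in parent LC-2/ad cells, and 2 in each TPC-1 group, averaged at least 1 TPM, mainly COL1A1 and CD68. Their summed level was 45.8 to 51.9 TPM in selpercatinib and 41.6 to 47.9 TPM in parent LC-2/ad libraries, and 44.8 to 56.1 TPM in selpercatinib and 46.4 to 48 TPM in parent TPC-1 libraries, and HBB was listed at 0 throughout. Their part was not tested either.

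The first comparison asked how the core components responded to selpercatinib in LC-2/ad. WWTR1, which encodes TAZ, fell, while AMOT, AMOTL2 and VGLL3 rose by 0.83 to 0.96 on the log2 scale and YAP1 rose by 0.19. A gene is called here when its adjusted p is under 0.05 (limma on log2(TPM + 1), Benjamini-Hochberg over all genes tested), and fold changes are log2 differences on that scale, given ± standard error, while mean TPM are given ± SD (n = 3). All 21 core components were tested, of which 11 rose, 4 fell and 6 were not called, with a median log2 fold change of 0.19. Over all 14118 genes tested in LC-2/ad the share called was 55%, with 30.6% higher and 24.4% lower, and the median log2 fold change was 0.07. Among the core components the shares were 52.4% higher and 19% lower. All 15 calls held with mitochondrial genes taken out of the TPM, which raised the median log2 fold change of all genes tested to 0.14. Scaled by median of ratios in place of TPM alone, where that median was -0.02, 14 held. In bulk RNA, fewer cells that express a gene and less RNA per cell cannot be told apart.

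**Figure D1:**
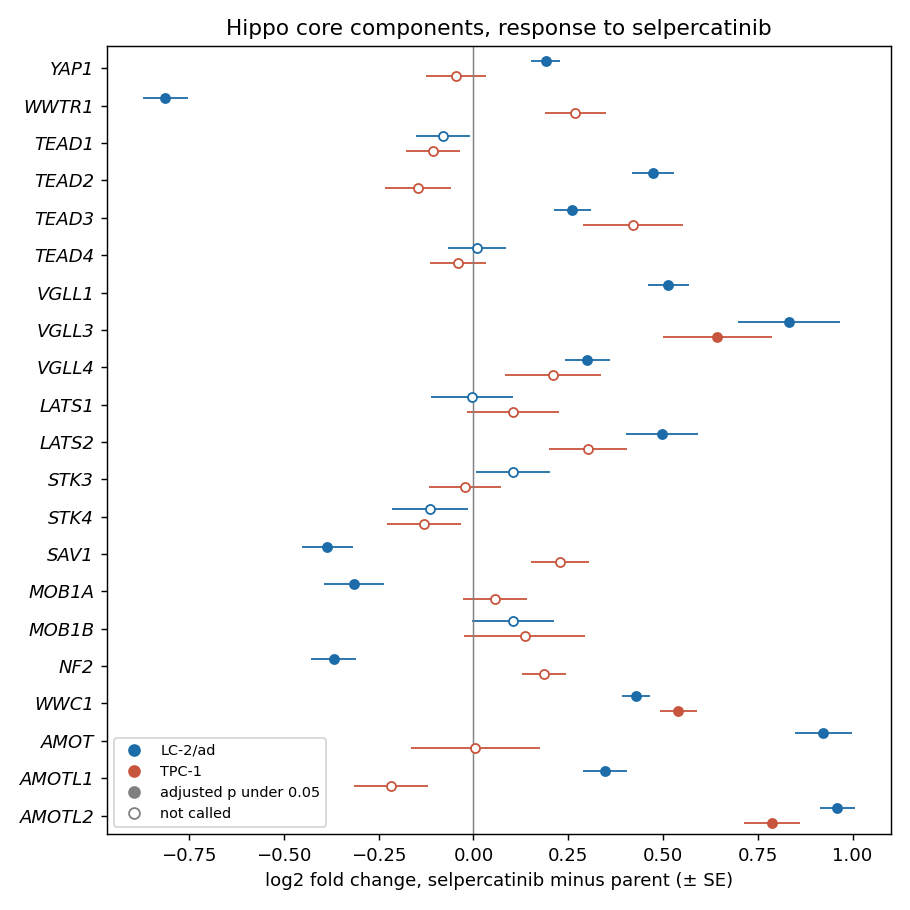
Log2 fold change of the 21 core components, selpercatinib minus parent, with its standard error on the horizontal axis, in LC-2/ad (blue) and TPC-1 (red), 3 libraries a group. Filled points have an adjusted p under 0.05, VGLL1 has no TPC-1 point, and WWTR1 lies at -0.81 in LC-2/ad and at 0.27 in TPC-1.

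The coactivators moved in opposite directions in LC-2/ad. WWTR1, at chromosome 3, 149517235 to 149736714, minus strand (GRCh38, GENCODE 29 annotation, as for the other loci), had 24.33, 26.91 and 24.42 TPM in selpercatinib libraries, against 45.52, 45.98 and 43.57 TPM in parent libraries. Every selpercatinib library lay below every parent library, and WWTR1 fell by 0.81 ± 0.060 on the log2 scale (adjusted p = 2.03e-05). YAP1, at chromosome 11, 102110461 to 102233423, plus strand, had 132, 135 and 132.1 TPM with selpercatinib, against 120, 116.6 and 112.9 TPM in parent cells. These groups did not overlap either, but the change was small, at 0.19 ± 0.038 (adjusted p = 0.00389). Scaled by median of ratios in place of TPM alone, the YAP1 change was 0.10 and was not called (adjusted p = 0.0598).

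Since TPM are per length, levels of genes can be set side by side within a library. The ratio of YAP1 to WWTR1 transcripts was 5.28 ± 0.23 in selpercatinib and 2.59 ± 0.050 in parent LC-2/ad libraries (SD, n = 3 each). Their sum was 158.2 ± 3.18 TPM with selpercatinib and 161.5 ± 4.6 TPM in parent cells. The ratio separated the groups completely and the sum did not. Both loci have an antisense RNA annotated over part of their exons (10% of exon bases at YAP1 and 9.4% at WWTR1), and whether the authors' quantification used strand is not given in the sources used here.

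The TEAD factors, the DNA-binding partners of YAP and TAZ, rose in 2 of 4 cases in LC-2/ad, beside 30.6% of all genes tested. TEAD2 had 38.67, 40.05 and 36.79 TPM with selpercatinib, against 28.03, 26.78 and 27.53 TPM in parent cells, a rise of 0.47 ± 0.055 (adjusted p = 0.000219). TEAD3 had 56.74, 55.86 and 53.99 TPM with selpercatinib, against 46.27, 47.66 and 44.57 TPM in parent cells, a rise of 0.26 ± 0.048 (adjusted p = 0.0025). For both genes the groups were apart, though 10.7% of TEAD2 exon bases lie opposite CD37. TEAD1 (54.59 ± 2.23 TPM with selpercatinib, 57.89 ± 5.39 TPM in parent cells) and TEAD4 (28.24 ± 1.68 TPM with selpercatinib, 28.07 ± 2.3 TPM in parent cells) overlapped between groups and were not called. Summed over the family, TEAD transcripts were at 176.9 ± 3.77 TPM with selpercatinib and 159.6 ± 6.98 TPM in parent cells. TEAD1 made up 30.9% of that sum with selpercatinib and 36.2% in parent cells, and TEAD2 made up 21.8% with selpercatinib and 17.2% in parent cells. TEAD3 made up 31.4% with selpercatinib, about the same as TEAD1 there, and 28.9% in parent cells.

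**Figure D2:**
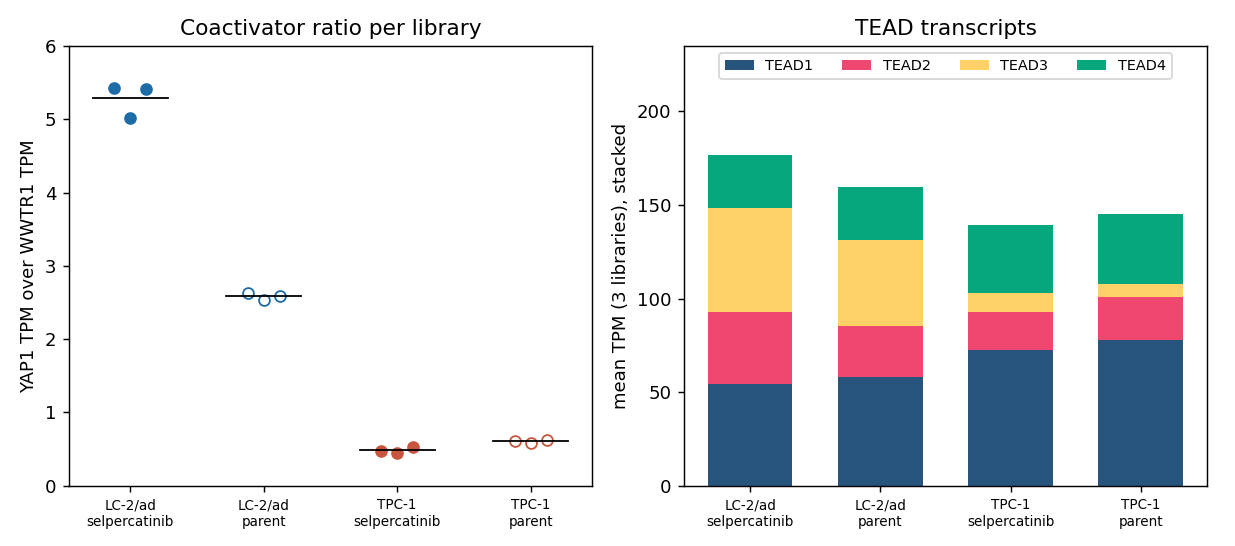
Left, YAP1 TPM over WWTR1 TPM in each library (points) with the group mean (line), with selpercatinib groups filled and parent groups open. Right, mean TPM of TEAD1 to TEAD4 over 3 libraries, stacked, so that the height is their sum. The ratio lies above 5 in selpercatinib LC-2/ad libraries and below 1 in all TPC-1 libraries, and TEAD1 is the largest TEAD share in TPC-1.

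The 3 VGLL cofactors, which bind TEAD proteins in place of YAP and TAZ, all rose in LC-2/ad, beside 30.6% of all genes tested. VGLL1 had 103.4, 100.2 and 95.26 TPM with selpercatinib, against 65.45, 73.09 and 69.99 TPM in parent cells, a rise of 0.51 ± 0.055 (adjusted p = 0.00014). VGLL3 was lower in level and changed more: it had 10.66, 9.056 and 8.316 TPM with selpercatinib, against 5.664, 4.061 and 4.723 TPM in parent cells (0.83 ± 0.135, adjusted p = 0.00128). VGLL4, known as a repressor of TEAD targets, averaged 43.12 ± 1.99 TPM with selpercatinib and 34.84 ± 1.57 TPM in parent cells (0.30 ± 0.059, adjusted p = 0.00335). No library of either group crossed into the other for any of the 3. For VGLL4, 22.1% of exon bases also lie in exons of ATG7 on the opposite strand, so its value is uncertain.

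Of the 7 genes of the kinase core, 1 rose, 2 fell and 4 were not called in LC-2/ad. Over all genes tested 30.6% were higher and 24.4% lower. LATS2, a kinase that phosphorylates YAP and TAZ and is itself known as a YAP target, had 11.38, 10.89 and 10.29 TPM with selpercatinib, against 7.253, 6.769 and 8.234 TPM in parent cells (0.50 ± 0.095, adjusted p = 0.00291). The adaptor SAV1 had 21.61, 23.13 and 23.67 TPM with selpercatinib, against 29.29, 28.88 and 32.16 TPM in parent cells (-0.39 ± 0.067, adjusted p = 0.00178). MOB1A, a cofactor of the LATS kinases, averaged 51.01 ± 3.45 TPM with selpercatinib and 63.8 ± 5.79 TPM in parent cells (-0.32 ± 0.078, adjusted p = 0.00999). For these 3 genes the groups were apart. LATS1, STK3, STK4 and MOB1B had fold changes between -0.12 and 0.11, all with overlapping groups. MOB1A and MOB1B are close paralogs that can share reads, and 14.9% of SAV1 exon bases lie opposite ATL1, which limits those values.

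Of the 5 upstream scaffolds, 4 rose and 1 fell in LC-2/ad, beside 30.6% higher and 24.4% lower over all genes tested. The angiomotin family ties YAP to cell junctions. AMOTL2, itself a known YAP target, at chromosome 3, 134355874 to 134375479, minus strand, had 133.6, 134.6 and 136.6 TPM with selpercatinib, against 70.17, 71.34 and 65.2 TPM in parent cells (0.96 ± 0.046, adjusted p = 2.42e-06). AMOT, on chromosome X, had 28.87, 30.4 and 31.12 TPM with selpercatinib, against 15.98, 16.43 and 13.95 TPM in parent cells (0.92 ± 0.076, adjusted p = 3.73e-05). For both, every selpercatinib library lay above every parent library. AMOTL1 averaged 37.21 ± 1.88 TPM with selpercatinib and 29.05 ± 0.722 TPM in parent cells (0.35 ± 0.058, adjusted p = 0.00146). The 3 angiomotin transcripts together were at 202.3 ± 2 TPM with selpercatinib, against 113.4 ± 5.18 TPM in parent cells. WWC1, which encodes the activator of LATS kinases known as KIBRA, had 178, 187.4 and 177.2 TPM with selpercatinib, against 134.3, 134.2 and 133.6 TPM in parent cells (0.43 ± 0.037, adjusted p = 4.37e-05). NF2, the tumour suppressor merlin, fell: it averaged 19.15 ± 0.769 TPM with selpercatinib and 25.02 ± 0.557 TPM in parent cells (-0.37 ± 0.060, adjusted p = 0.00124). The groups of AMOTL1, WWC1 and NF2 did not overlap either.

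The second comparison asked the same of the YAP and TAZ targets in LC-2/ad. ANKRD1, ARHGEF17, CCN2 and CCDC80 were the targets that rose most, and NT5E and ASAP1 those that fell most. Of the 17 targets, all tested, 11 rose, 4 fell and 2 were not called, with a median log2 fold change of 0.51. The share that rose was 64.7%, beside 30.6% over all genes tested, and the share that fell was 23.5%, beside 24.4%. All 15 calls held with mitochondrial genes taken out, which shifts fold changes upward in LC-2/ad. With median-of-ratios scaling, which shifts them downward, 14 held. The call lost was that of PTPN14 (0.42, adjusted p = 0.0592).

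**Figure D3:**
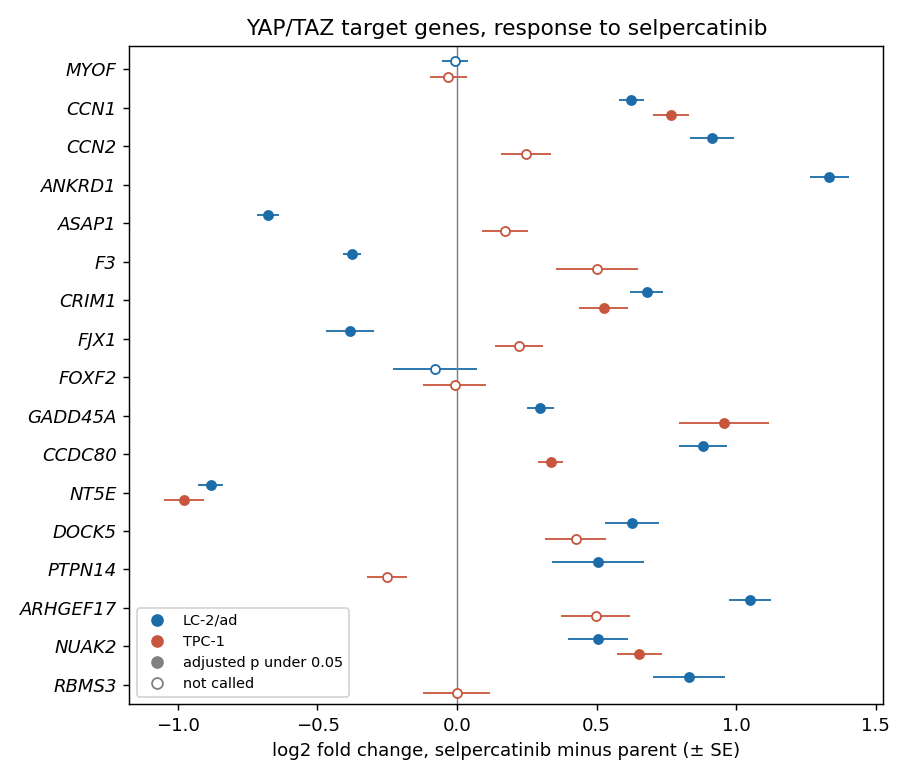
Log2 fold change of the 17 target genes, selpercatinib minus parent, with its standard error on the horizontal axis, in LC-2/ad (blue) and TPC-1 (red), 3 libraries a group. Filled points have an adjusted p under 0.05, and ANKRD1, at 1.33 in LC-2/ad, has no TPC-1 point.

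Promoters are shown for the called targets with the largest changes, since TEAD proteins bring YAP and TAZ to DNA through the letters GGAATG or, read on the other strand, CATTCC. They were searched in RefSeq promoters of GRCh38.p14, from 250 bases before to 50 after each start, of which 14.0% of all 35116 hold them on either strand. Sequences run 5′ to 3′ along the gene, in lower case, with the searched letters in capitals.
CCN2: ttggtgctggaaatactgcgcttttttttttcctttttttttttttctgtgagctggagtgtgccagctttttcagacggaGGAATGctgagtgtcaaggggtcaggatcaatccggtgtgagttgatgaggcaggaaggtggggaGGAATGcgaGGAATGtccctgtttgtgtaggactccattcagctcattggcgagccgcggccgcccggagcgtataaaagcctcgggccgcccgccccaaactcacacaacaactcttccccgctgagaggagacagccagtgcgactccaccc
ANKRD1: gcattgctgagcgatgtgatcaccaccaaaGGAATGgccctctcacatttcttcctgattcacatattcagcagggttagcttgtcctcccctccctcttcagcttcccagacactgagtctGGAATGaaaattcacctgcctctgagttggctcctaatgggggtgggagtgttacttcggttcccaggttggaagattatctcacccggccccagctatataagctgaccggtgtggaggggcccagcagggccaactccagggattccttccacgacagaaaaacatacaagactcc
NT5E: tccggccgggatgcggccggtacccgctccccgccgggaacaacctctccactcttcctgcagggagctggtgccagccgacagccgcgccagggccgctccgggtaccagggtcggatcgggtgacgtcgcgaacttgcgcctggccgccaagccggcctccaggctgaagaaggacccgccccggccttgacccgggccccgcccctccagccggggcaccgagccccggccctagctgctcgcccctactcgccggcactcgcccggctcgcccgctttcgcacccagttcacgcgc
CCDC80: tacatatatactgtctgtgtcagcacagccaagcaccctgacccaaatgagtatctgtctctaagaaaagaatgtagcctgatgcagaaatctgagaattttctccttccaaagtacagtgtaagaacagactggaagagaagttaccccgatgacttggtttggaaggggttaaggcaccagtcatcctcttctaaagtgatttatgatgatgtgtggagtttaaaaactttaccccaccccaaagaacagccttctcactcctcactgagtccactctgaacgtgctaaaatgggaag
The CCN2 window is chr6:131951323-131951622 on the minus strand and holds 3 matches, 169, 104 and 95 bases before the start. The ANKRD1 window is chr10:90921038-90921337 on the minus strand and holds 2, at 220 and 128 bases before the start. Neither the NT5E window, chr6:85449833-85450132 on the plus strand, nor the CCDC80 window, chr3:112641094-112641393 on the minus strand, holds a match. In GENCODE 29 both genes reach further upstream than these windows, NT5E to 85449584 and CCDC80 to 112649530. No window at those ends was searched. ANKRD1 there reaches to 90921276, which is inside its window and upstream of the start used. Its match 128 bases before that start thus lies within the annotated gene. In LC-2/ad CCN2 and ANKRD1, with the letters, rose, and of the genes without them CCDC80 rose and NT5E fell. These 4 were picked by the size of their change, and whether the change goes with the letters was not tested. Promoters matched for 11 of 17 targets, 5 of which hold the letters (CCN2, ANKRD1, FOXF2, NUAK2 and PTPN14), and for 18 of 21 core components, 4 of which do. These counts are of genes, with the letters in any window of the gene, while the 14.0% is a share of windows, so they are not alike. ARHGEF17 and GADD45A, also among the targets with the largest changes, had no matched promoter. A match describes the letters of a window and shows no binding.

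The secreted matrix proteins CCN1 and CCN2 are the targets most often read as YAP output. CCN1, at chromosome 1, 85580761 to 85583962, plus strand, had 112, 104.4 and 104.7 TPM in selpercatinib LC-2/ad libraries, against 68.9, 67.77 and 70.32 TPM in parent libraries (0.63 ± 0.045, adjusted p = 1.74e-05). CCN2 had 21.45, 21.5 and 18.89 TPM with selpercatinib, against 9.832, 10.63 and 10.91 TPM in parent cells (0.91 ± 0.080, adjusted p = 5.02e-05). ANKRD1, an ankyrin repeat protein that works in the nucleus, had 43.88, 40.59 and 42.41 TPM with selpercatinib, against 14.81, 16.88 and 16.88 TPM in parent cells (1.33 ± 0.070, adjusted p = 3.81e-06). All 3 targets were higher in every selpercatinib library than in any parent library. CCDC80, another secreted matrix protein, had 35.23, 37.82 and 33.43 TPM with selpercatinib, against 16.99, 18.64 and 20.96 TPM in parent cells (0.88 ± 0.086, adjusted p = 8.95e-05). CRIM1, a membrane protein that binds BMP growth factors, averaged 24.49 ± 0.755 TPM with selpercatinib and 14.9 ± 0.134 TPM in parent cells (0.68 ± 0.059, adjusted p = 4.74e-05). The groups of both genes were apart. Antisense RNAs are annotated over 8.3% of CCN2 exon bases and 9.7% of those of ARHGEF17.

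**Figure D4:**
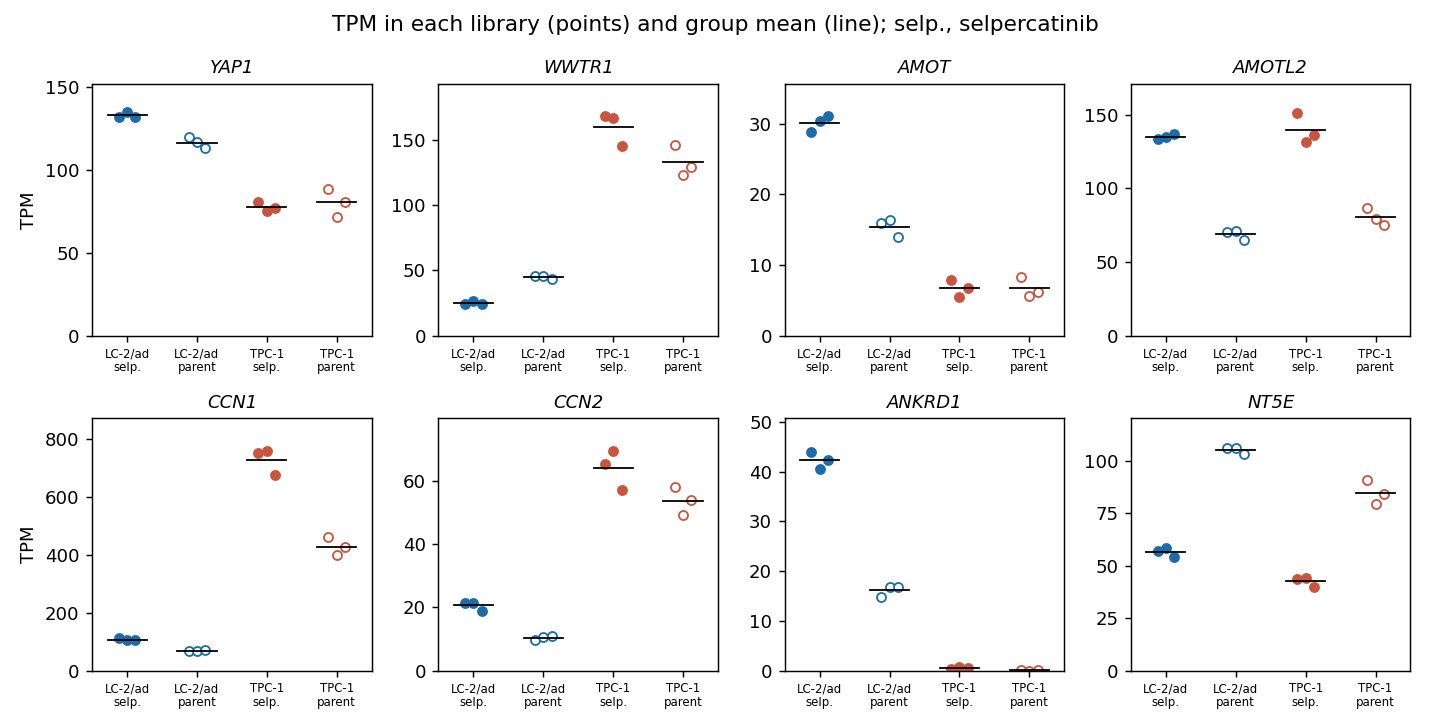
TPM of 8 members in each library (points) with the group mean (line), each panel starting at 0 with its own scale, with selpercatinib groups filled and left of the open parent groups of the same line. WWTR1 is lower with selpercatinib in LC-2/ad, AMOTL2 and CCN1 are higher and NT5E lower in both lines, and ANKRD1 is near 0 in TPC-1.

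ARHGEF17, DOCK5, NUAK2, RBMS3, GADD45A and PTPN14 also rose in LC-2/ad. ARHGEF17, a guanine nucleotide exchange factor, had 43.77, 41.78 and 44.22 TPM with selpercatinib, against 21.7, 21.41 and 18.24 TPM in parent cells (1.05 ± 0.076, adjusted p = 1.86e-05). DOCK5, an exchange factor for Rac, averaged 16.81 ± 1.9 TPM with selpercatinib and 10.5 ± 0.571 TPM in parent cells (0.63 ± 0.096, adjusted p = 0.000937). The kinase NUAK2, related to AMPK, averaged 5.65 ± 0.51 TPM with selpercatinib and 3.67 ± 0.115 TPM in parent cells (0.51 ± 0.107, adjusted p = 0.00474). Their groups were apart, as were those of RBMS3, which binds RNA and averaged 8.33 ± 1.13 TPM with selpercatinib and 4.24 ± 0.516 TPM in parent cells (0.83 ± 0.129, adjusted p = 0.00101). GADD45A, a gene of the DNA damage and stress response, averaged 70.82 ± 2.02 TPM with selpercatinib and 57.43 ± 2.14 TPM in parent cells (0.30 ± 0.048, adjusted p = 0.00122). PTPN14, a phosphatase that binds YAP, had 17.29, 18.11 and 14.32 TPM with selpercatinib, against 12.81, 13.23 and 8.526 TPM in parent cells (0.51 ± 0.164, adjusted p = 0.0316). That call was the weakest among the targets, and without parent library 3, the lowest of the 6, its fold change was 0.32 (adjusted p = 0.0539). The call was also lost without selpercatinib library 1 (0.47, adjusted p = 0.0818) or 2 (0.44, adjusted p = 0.0947).

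NT5E, ASAP1, F3 and FJX1 fell in LC-2/ad. NT5E, which encodes the surface enzyme that makes adenosine from AMP, at chromosome 6, 85449584 to 85495791, plus strand, had 56.76, 58.63 and 54.18 TPM with selpercatinib, against 105.8, 105.9 and 103.3 TPM in parent cells (-0.88 ± 0.045, adjusted p = 3.26e-06). ASAP1, a GTPase-activating protein for Arf, had 129.9, 126.2 and 123.2 TPM with selpercatinib, against 201, 209.4 and 197.8 TPM in parent cells (-0.68 ± 0.039, adjusted p = 6.05e-06). F3, the tissue factor that starts blood clotting, had 289, 283.5 and 295.6 TPM with selpercatinib, against 368, 374.3 and 385.2 TPM in parent cells (-0.38 ± 0.033, adjusted p = 4.96e-05). These 3 genes were lower in every selpercatinib library. FJX1, the human counterpart of the fly gene four-jointed, averaged 6.18 ± 0.196 TPM with selpercatinib and 8.38 ± 0.392 TPM in parent cells (-0.38 ± 0.085, adjusted p = 0.00619). MYOF, a ferlin of membrane repair, was at 154.4 ± 8.35 TPM with selpercatinib and 155.1 ± 3.27 TPM in parent cells. FOXF2, a forkhead factor, was at 1.3 ± 0.13 TPM with selpercatinib and 1.42 ± 0.0227 TPM in parent cells, and neither gene was called, although the FOXF2 groups did not overlap.

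In TPC-1 the response of the core was narrower. VGLL3, WWC1 and AMOTL2 rose, no core component fell, and neither YAP1 nor WWTR1 was called. Of 21 core components 20 were tested, since VGLL1 was listed at 0 in all 6 TPC-1 libraries, and the 3 that rose left 17 not called, with a median log2 fold change of 0.12. At an unadjusted p under 0.05 in limma, 8 core components were higher and 0 were lower, as were 10 and 2 targets, beside 14.8% higher and 6.67% lower over all genes tested. Over all 12825 genes tested in TPC-1 the share called was 4.96%, with 3.75% higher and 1.21% lower and a median log2 fold change of 0.05, and among the core components 15% were higher. Without parent library 1, which stood apart, 3 core components and 8 targets were called, of which 2 and 6 were also called with all libraries. The share called over all genes was then 6.36%, and it was 2.27 to 2.65% without parent library 2 or 3 or selpercatinib library 1 or 2.

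AMOTL2 had 151.1, 131.3 and 135.9 TPM in selpercatinib TPC-1 libraries, against 86.52, 79.43 and 75.14 TPM in parent libraries (0.79 ± 0.074, adjusted p = 0.000662). WWC1 had 247.7, 228.8 and 237.3 TPM with selpercatinib, against 165.9, 162.1 and 161.7 TPM in parent cells (0.54 ± 0.049, adjusted p = 0.000579). VGLL3 had 4.299, 3.831 and 4.235 TPM with selpercatinib, against 2.014, 2.593 and 2.252 TPM in parent cells (0.64 ± 0.144, adjusted p = 0.0398). The groups of all 3 genes were apart, but the VGLL3 call was lost on leaving out any 1 of the 6 libraries (adjusted p from 0.0696 to 0.139). AMOT had 7.952, 5.439 and 6.776 TPM with selpercatinib, against 8.284, 5.638 and 6.203 TPM in parent cells, with no separation. AMOTL2 was the one angiomotin gene called in TPC-1, and the family sum was 159.8 ± 12.4 TPM with selpercatinib and 103.1 ± 7.57 TPM in parent cells.

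YAP1 had 80.75, 74.96 and 77.13 TPM in selpercatinib TPC-1 libraries, against 88.75, 71.91 and 80.54 TPM in parent libraries, and the groups overlapped (-0.05 ± 0.080, adjusted p = 0.791). WWTR1 had 168, 166.3 and 145 TPM with selpercatinib, against 145.6, 123 and 128.9 TPM in parent cells (0.27 ± 0.080, adjusted p = 0.0963). The lowest selpercatinib library lay just under the highest parent library. Without that parent library, library 1, WWTR1 passed the threshold (0.34, adjusted p = 0.0429), and without that selpercatinib library, library 3, it did not (0.34, adjusted p = 0.0562). The ratio of YAP1 to WWTR1 was 0.488 ± 0.041 with selpercatinib and 0.606 ± 0.020 in parent TPC-1 libraries. TEAD3 (10.06 ± 1.71 TPM with selpercatinib, 7.2 ± 0.46 TPM in parent cells, adjusted p = 0.107) had groups that did not overlap, without reaching the threshold. TEAD1, at 72.3 ± 5.97 TPM with selpercatinib and 77.75 ± 2.39 TPM in parent cells, made up 51.9% of the TEAD sum with selpercatinib and 53.6% in parent cells. In the kinase core LATS2 (0.30) and SAV1 (0.23) had all selpercatinib libraries above all parent libraries, and neither was called. Of the upstream scaffolds NF2 (0.19) had all above and AMOTL1 (-0.22) all below, also uncalled. The other 9 core components, TEAD1, TEAD2, TEAD4, VGLL4, LATS1, STK3, STK4, MOB1A and MOB1B, had fold changes between -0.15 and 0.21 and overlapping groups.

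Among the targets in TPC-1, CCN1, CRIM1, GADD45A, CCDC80 and NUAK2 rose and NT5E fell. Of 17 targets 16 were tested, and 10 were not called, with a median log2 fold change of 0.29. The share that rose was 31.2% and the share that fell was 6.25%, beside 3.75% and 1.21% over all genes tested. CCN1 had 752.3, 758.2 and 676.9 TPM with selpercatinib, against 460.6, 398.2 and 425.8 TPM in parent cells (0.77 ± 0.066, adjusted p = 0.000491). NUAK2 had 27.76, 26.28 and 25.66 TPM with selpercatinib, against 17.19, 15.42 and 16.99 TPM in parent cells (0.65 ± 0.080, adjusted p = 0.00275). GADD45A had 39.83, 49.31 and 34.17 TPM with selpercatinib, against 25.51, 17.37 and 19.28 TPM in parent cells (0.96 ± 0.160, adjusted p = 0.0112). Every selpercatinib library lay above every parent library for these 3 genes, with the widest scatter in GADD45A, which was not called without parent library 3 (adjusted p = 0.0526). CRIM1 averaged 243.1 ± 21.5 TPM with selpercatinib and 168.8 ± 17.2 TPM in parent cells (0.53 ± 0.087, adjusted p = 0.0104). CCDC80 averaged 693.6 ± 19.1 TPM with selpercatinib and 549.5 ± 16.7 TPM in parent cells (0.34 ± 0.045, adjusted p = 0.00383). NT5E had 43.65, 44.07 and 39.72 TPM with selpercatinib, against 90.83, 79.27 and 84.14 TPM in parent cells, a fall close to that in LC-2/ad (-0.98 ± 0.072, adjusted p = 0.000248).

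The other targets did not pass in TPC-1. CCN2 had 65.47, 69.54 and 57.19 TPM with selpercatinib, against 58.05, 49.08 and 54.03 TPM in parent cells, and overlapped by 1 pair of libraries (0.25 ± 0.090, adjusted p = 0.154). The ratio of CCN1 to CCN2 was 11.4 ± 0.47 with selpercatinib and 7.98 ± 0.12 in parent TPC-1 libraries, and 5.21 ± 0.34 with selpercatinib and 6.61 ± 0.35 in parent LC-2/ad libraries. ANKRD1 was barely detected in TPC-1 and fell below the filter of a mean of 1 TPM: it had 0.415, 0.7505 and 0.4616 TPM with selpercatinib, against 0.06635, 0 and 0.03854 TPM in parent cells. Its groups were apart at this low level, and with no filter its fold change was 0.57 ± 0.091 (adjusted p = 0.0569). ARHGEF17 (0.50, adjusted p = 0.0557), DOCK5 (0.43, adjusted p = 0.0629) and FJX1 (0.22, adjusted p = 0.178) had all selpercatinib libraries above all parent libraries, and PTPN14 (-0.25, adjusted p = 0.0866) had all below. F3 (0.50, adjusted p = 0.0915) and ASAP1 (0.17, adjusted p = 0.274) overlapped. Without parent library 1, DOCK5 (adjusted p = 0.0228) and F3 (adjusted p = 0.0313) passed, and without selpercatinib library 3, ARHGEF17 (adjusted p = 0.0191) and F3 (adjusted p = 0.0372) did. MYOF, FOXF2 and RBMS3 had fold changes between -0.03 and -0.001.

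Counted over all members, 22 had every selpercatinib library above every parent library in LC-2/ad and 9 had every one below. Over all genes tested in LC-2/ad those shares were 35.3% and 27.6%, 62.8% together. In TPC-1, 15 of 36 tested members lay wholly above and 3 wholly below, beside 16.6% and 9.23% of all genes tested, 25.8% together.

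The lines share no libraries, so their responses can be set side by side. Of 36 members tested in both lines, 28 were called in LC-2/ad while 9 were called in TPC-1, and 9 were called in both in the same direction, which is 32.1% of the LC-2/ad calls and 100% of the TPC-1 calls. These were VGLL3, WWC1, AMOTL2, CCN1, CRIM1, GADD45A, CCDC80 and NUAK2, higher in both, and NT5E, lower in both. Over all 11996 genes tested in both lines, 304 were called in both in the same direction, 4.5% of the LC-2/ad calls and 54.7% of the TPC-1 calls, and 88 were called in opposite directions.

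**Figure D5:**
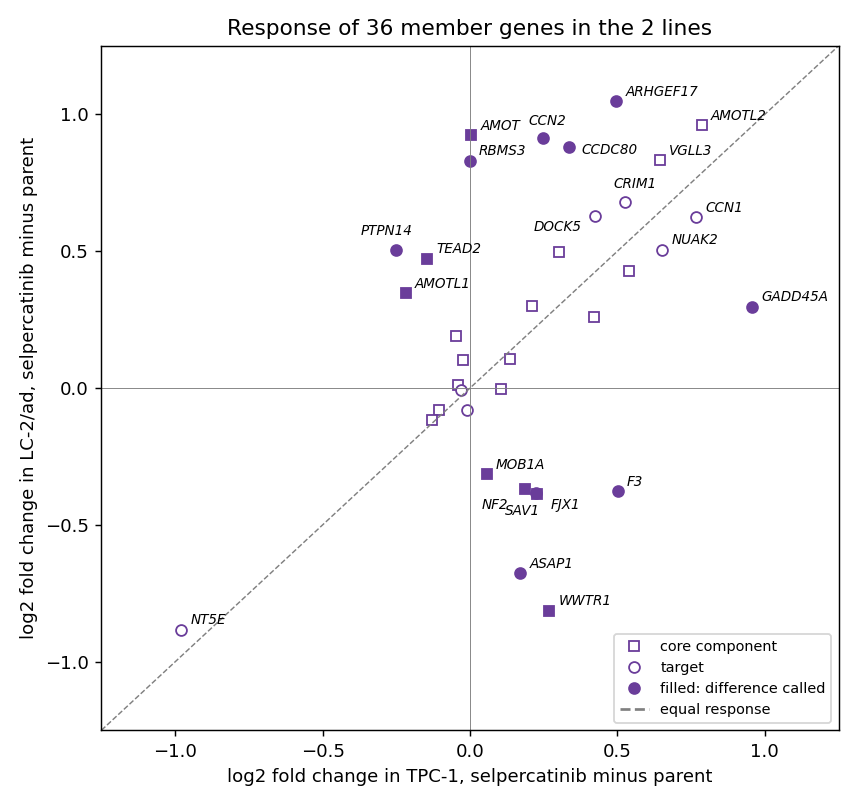
Log2 fold change, selpercatinib minus parent, in LC-2/ad (vertical) against TPC-1 (horizontal) for the 36 members tested in both lines, with squares for core components and circles for targets. Filled points are members whose response differed between lines at an adjusted p under 0.05, and WWTR1, at a difference of -1.08, lies farthest below the dashed line of equal response, and the points of SAV1 and FJX1 nearly coincide.

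The difference of the responses, LC-2/ad minus TPC-1, was tested over all 12 libraries. Of 36 members tested 16 were called, 8 higher and 8 lower in LC-2/ad, beside 36.6% of all genes tested (14.4% higher and 22.2% lower). WWTR1 differed most, by -1.08 ± 0.104 (adjusted p = 5.91e-06), since it fell in LC-2/ad and was somewhat higher, uncalled, in TPC-1. YAP1 did not pass (0.24 ± 0.092, adjusted p = 0.061), and passed without TPC-1 parent library 2 (adjusted p = 0.00676), with mitochondrial genes removed (0.32, adjusted p = 0.014) and with median-of-ratios scaling (0.20, adjusted p = 0.0413). Of the core, TEAD2 (0.62 ± 0.10), AMOT (0.92 ± 0.195) and AMOTL1 (0.56 ± 0.107) responded more positively in LC-2/ad, and SAV1 (-0.61 ± 0.099), MOB1A (-0.37 ± 0.122) and NF2 (-0.55 ± 0.076) more negatively. The MOB1A call was lost without library 3 of either LC-2/ad group, TPC-1 parent library 2 or TPC-1 selpercatinib library 1 (adjusted p from 0.0716 to 0.0768). Among targets CCN2 (0.67 ± 0.124), CCDC80 (0.55 ± 0.095), ARHGEF17 (0.55 ± 0.152), PTPN14 (0.76 ± 0.191) and RBMS3 (0.83 ± 0.181) responded more positively in LC-2/ad. ASAP1 (-0.85 ± 0.089), F3 (-0.88 ± 0.17), FJX1 (-0.61 ± 0.115) and GADD45A (-0.66 ± 0.187) did so in TPC-1. For AMOTL2, WWC1, VGLL3, CCN1, CRIM1, NUAK2 and NT5E, called in both lines, the difference was not called, which does not show that they respond alike.

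Levels can be ordered within each line but are not tested between lines, because the tables are separate. In selpercatinib cells F3 was the most abundant member in LC-2/ad, at 289.4 ± 6.07 TPM, followed by WWC1 (180.8 ± 5.7 TPM), MYOF (154.4 ± 8.35 TPM), AMOTL2 (134.9 ± 1.54 TPM) and YAP1 (133 ± 1.72 TPM), of which the last 2 lie within their spread of each other. In selpercatinib TPC-1 cells CCN1 (729.1 ± 45.4 TPM) and CCDC80 (693.6 ± 19.1 TPM) led and lay within their spread of each other, followed by CRIM1 (243.1 ± 21.5 TPM) and WWC1 (237.9 ± 9.49 TPM), which did so too. YAP1 transcripts outnumbered WWTR1 transcripts in all 6 LC-2/ad libraries, and WWTR1 transcripts outnumbered YAP1 transcripts in all 6 TPC-1 libraries.

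Other genes of the pathway, listed from textbook knowledge, were counted beside the members. Of 33 further Hippo regulators tested in LC-2/ad, 15 rose (45.5%, beside 30.6% of all genes tested), 4 fell (12.1%, beside 24.4%) and 14 were not called. The regulators AJUBA, LIMD1 and WTIP, LIM proteins that bind LATS kinases, rose, with AJUBA at 82.32 ± 2.73 TPM with selpercatinib and 35.79 ± 2.17 TPM in parent cells (1.18 ± 0.057, adjusted p = 2.65e-06). WTIP (1.13), FAT4 (1.21), a giant cadherin, WWC2 (0.77), a relative of WWC1, STK38 (0.76), a LATS-like kinase, RASSF6 (0.75), FRMD6 (0.66), LIMD1 (0.58) and FAT1 (0.54) rose, and STRIP2 (-0.85), of the STRIPAK phosphatase complex, fell. FAT4 was low, at 2.93 ± 0.242 TPM with selpercatinib and 0.695 ± 0.0812 TPM in parent cells. RASSF6 was low too, at 2.84 ± 0.248 TPM with selpercatinib and 1.28 ± 0.229 TPM in parent cells. So was STRIP2, at 1.13 ± 0.113 TPM with selpercatinib and 2.86 ± 0.278 TPM in parent cells. In TPC-1, 3 of 33 rose (9.09%, beside 3.75%), 1 fell (3.03%, beside 1.21%) and 29 were not called. FRMD6 was the one to pass with a fold change of at least 0.5 (0.53 ± 0.079, adjusted p = 0.0062). AJUBA (0.497 ± 0.071, adjusted p = 0.00515) and TP53BP2 (0.483 ± 0.085, adjusted p = 0.0143) also rose there, just under 0.5. MAP4K4 fell (-0.309 ± 0.059, adjusted p = 0.0211).

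Of 9 further genes known as YAP and TAZ targets, 7 rose (77.8%, beside 30.6% of all genes tested) and 1 fell (11.1%, beside 24.4%) in LC-2/ad. EDN1, which encodes the vasoconstrictor endothelin, averaged 17.94 ± 0.935 TPM with selpercatinib and 7.03 ± 0.133 TPM in parent cells (1.24 ± 0.074, adjusted p = 7.28e-06). TGFB2 (1.39), TAGLN (1.18), FSTL1 (0.98), THBS1 (0.81) and the receptor kinase gene AXL (0.57) also rose by at least 0.5. AREG, a ligand of the EGF receptor, went against them, at 23.05 ± 0.547 TPM with selpercatinib and 123.9 ± 2.98 TPM in parent cells (-2.38 ± 0.045, adjusted p = 9.88e-08). In TPC-1, 5 of these 9 rose (55.6%, beside 3.75%), all by at least 0.5, and 0 fell in limma, also 0 at an unadjusted p under 0.05. They were EDN1 (1.58), IGFBP3 (1.11), FSTL1 (0.66), THBS1 (0.62) and TAGLN (0.54). EDN1 was low there, at 5.61 ± 0.963 TPM with selpercatinib and 1.2 ± 0.14 TPM in parent cells.

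How TPM are scaled moved the balance of all calls. In LC-2/ad 55.6% of called genes were higher with selpercatinib, against 44.4% after median-of-ratios scaling and 64.8% with mitochondrial genes taken out, and in TPC-1 75.6% were higher, against 62.3% after median-of-ratios scaling. For the difference of responses 39.4% were higher in LC-2/ad, against 52.7% with mitochondrial genes taken out.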

How the data were processed

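RNA-seq was analysed in 12 libraries of LC-2/ad and TPC-1 cells. Per the submitters' processing notes, the authors used bcl2fastq 2.20.0 and Salmon with GRCh38, and they deposited 1 table of TPM, a length-corrected share of transcripts, per line with 37247 genes. The annotation, the settings and the handling of strand are not given in the sources used here. Symbols were found for 34436 identifiers (92.5%). Depth is unknown, so counting error cannot be given, and no count test was used. Per line, limma 3.58.1 (R 4.3.3, variance trend) was fitted to log2(TPM + 1) for genes with a mean of at least 1 TPM over 6 libraries, two-sided, with Benjamini-Hochberg adjustment over all of them. The difference between lines was fitted on 12 libraries, for genes with that mean in each line. Fold changes on this scale understate low genes. The scripts were tested on simulated data. All 38 members are described, and other pathway genes are named where called with a log2 fold change of at least 0.5 in size. AJUBA, TP53BP2 and MAP4K4, called in TPC-1 with smaller changes, are named as well. A listed target and a listed marker are not reported here and stay out of the counts of their lists. Promoters are shown for up to 6 called targets with the largest changes. Members, lists and tests were chosen with earlier results of these data known. Alternatives were other pseudocounts (0.1 and 5), filters, scalings, no variance trend, a replicate block and leaving out each library.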

Additional observations from a re-analysis of the deposited data

Results flagged for a closer look

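The response to selpercatinib differed between the lines for 16 of 36 members tested, beside 36.6% of all genes tested. The test was of the difference itself (LC-2/ad minus TPC-1 on the log2 scale, limma, Benjamini-Hochberg over 11996 genes). Of core components 3 were higher and 4 lower in LC-2/ad and 13 were not called. Of targets 5 were higher, 4 lower and 7 not called. Whether these shares stand out from that of all genes was not tested. Among core components the difference was 0.62 for TEAD2 (adjusted p = 0.000384), 0.92 for AMOT (adjusted p = 0.00266) and 0.56 for AMOTL1 (adjusted p = 0.00122). It was -1.08 for WWTR1 (adjusted p = 5.91e-06), -0.61 for SAV1 (adjusted p = 0.000372), -0.37 for MOB1A (adjusted p = 0.0306) and -0.55 for NF2 (adjusted p = 0.000106). Among targets it was 0.67 for CCN2 (adjusted p = 0.00108), 0.55 for CCDC80 (adjusted p = 0.000662), 0.76 for PTPN14 (adjusted p = 0.00784), 0.55 for ARHGEF17 (adjusted p = 0.0127) and 0.83 for RBMS3 (adjusted p = 0.0031). On the other side it was -0.85 for ASAP1 (adjusted p = 1.11e-05), -0.88 for F3 (adjusted p = 0.00143), -0.61 for FJX1 (adjusted p = 0.00125) and -0.66 for GADD45A (adjusted p = 0.0151). With 3 libraries a group no single library was tested as standing apart.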

How the results depend on the processing

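Across the alternatives, called core components numbered 14 to 15 (LC-2/ad) and 2 to 3 (TPC-1), called targets 14 to 15 (LC-2/ad) and 3 to 8 (TPC-1), and called differences 15 to 17. The 3 TPC-1 targets were reached with no variance trend (2 higher and 1 lower), where CRIM1, GADD45A and CCDC80 were not called (adjusted p = 0.0611, 0.0507 and 0.0545). With no filter 4 TPC-1 targets were called. Leaving out 1 library gave 15 core components and 14 to 15 targets in LC-2/ad, 2 to 3 core components and 5 to 8 targets in TPC-1, and 15 to 16 differences. Every such fit of TPC-1 lost VGLL3, and the one without parent library 3 also lost GADD45A. PTPN14 in LC-2/ad was lost without parent library 3, selpercatinib library 1 or 2 (adjusted p = 0.0539, 0.0818 and 0.0947), with no filter, with median-of-ratios scaling and with no trend. The MOB1A difference was lost with no filter (adjusted p = 0.0533), with mitochondrial genes removed (adjusted p = 0.0888), and without LC-2/ad parent or selpercatinib library 3, TPC-1 parent library 2 or selpercatinib library 1 (adjusted p from 0.0716 to 0.0768). The cause was not tested. ARHGEF17 and DOCK5 in TPC-1 passed with a filter of 5 TPM (adjusted p = 0.0374 and 0.0434), F3 without parent library 1 or selpercatinib library 3 (adjusted p = 0.0313 and 0.0372), and PTPN14, lower, with median-of-ratios scaling (adjusted p = 0.0213). The AMOTL2 difference passed with mitochondrial genes removed (adjusted p = 0.0352) and that of NUAK2 with a pseudocount of 5 (adjusted p = 0.0331).

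Same-numbered libraries did not deviate together over all genes (correlations from -0.048 to -0.015 in LC-2/ad and from -0.026 to 0.054 in TPC-1). For libraries with unlike numbers the correlations were 0.003 to 0.04 in LC-2/ad and -0.116 to 0.087 in TPC-1. No pairing by number was seen, which cannot exclude a weak pairing or one limited to few genes. With the replicate block, calls numbered 15 core components and 15 targets (LC-2/ad), 2 core components and 8 targets (TPC-1), and 17 differences, YAP1 among them (adjusted p = 0.0384).

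Signs turned only for members that were not called. With median-of-ratios scaling TEAD4 in LC-2/ad was at -0.082, AMOT in TPC-1 at -0.045, and the differences of TEAD1, STK4 and MYOF at -0.011, -0.017 and -0.014. With mitochondrial genes removed LATS1 and MYOF in LC-2/ad were at 0.068 and 0.070, AMOT in TPC-1 at -0.004 and the MOB1B difference at 0.054. With a pseudocount of 5, RBMS3 in TPC-1 was at 0.001. On leaving out 1 library the range in LC-2/ad was -0.057 to 0.051 for TEAD4, -0.101 to 0.084 for LATS1 and -0.032 to 0.038 for MYOF. In TPC-1 it was -0.123 to 0.027 for YAP1, -0.089 to 0 for TEAD4, -0.079 to 0.025 for STK3, -0.018 to 0.126 for MOB1A, -0.028 to 0.249 for MOB1B, -0.108 to 0.146 for AMOT, -0.071 to 0.026 for MYOF, -0.094 to 0.069 for FOXF2 and -0.096 to 0.122 for RBMS3. For the difference it was -0.043 to 0.095 for TEAD1, -0.016 to 0.099 for TEAD4, -0.054 to 0.179 for VGLL4, -0.067 to 0.106 for STK4, -0.144 to 0.134 for MOB1B, -0.034 to 0.069 for MYOF and -0.148 to 0.015 for FOXF2. Over all genes of TPC-1, calls numbered 481 higher and 155 lower, and 203 and 69 with no filter or 266 and 90 with no variance trend. Leaving out 1 library gave 222 and 70 (without parent library 3) to 676 and 139 (without parent library 1). Depth is unknown, so what it limits cannot be stated.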
